A study of Bos taurus with 10 samples.

Results

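Transcripts of 3 genes that set the growth of skeletal muscle were examined in cattle: IGF1 (ENSBTAG00000011082), IGF2 (ENSBTAG00000013066) and MSTN, which encodes myostatin (ENSBTAG00000011808). They are 3 of the 16963 genes in the deposited count table, chosen by their Ensembl identifiers for what the genes are known to do. Earlier results of these data were known at the time of that choice. The identifiers were paired with these symbols when the genes were chosen. Neither the count table nor the reference gene table used here pairs Ensembl identifiers with symbols, so the names could not be checked against the files, and no coordinates or sequences are given.

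Longissimus muscle, the long muscle of the back, was taken from 10 Angus x Simmental steers aged 385 ± 5 days. In the DDGS group (5 steers) the dams had received dried distillers grains and solubles while lactating. In the SBM group (5 steers) the dams had received the control diet. The labels name no treatment of the steers themselves, no sire and no sampling or sequencing batch, and each library is labelled as 1 animal.

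IGF1 is a secreted growth factor made in the liver under growth hormone and also within muscle. It acts through the receptor IGF1R and the AKT and mTOR pathway to raise protein synthesis and to stimulate muscle stem cells. IGF2 binds the same receptor, is best known as a fetal growth factor, is produced as myoblasts differentiate, and is imprinted in cattle, with expression mainly from the paternal copy. Myostatin, a secreted member of the TGF-beta family, acts through activin receptors and SMAD proteins to restrain muscle mass. Cattle that lack functional myostatin are double-muscled.

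The libraries held 16942156 to 24936741 counts. Levels are given as CPM, counts relative to the library size, with sizes scaled by TMM, edgeR's method for making libraries comparable. The table holds no 0 and its lowest value is 1, which made up 21.8% of all values. Such a value is called "listed at 1" here and is not read as 1 observed fragment. A count of 0 would allow up to 3 counts, or 0.126 to 0.204 CPM depending on the library. Between 2524 and 5078 genes were listed at 1 in a library, most of them in DDGS replicate 3. At mean counts of 100 to 300, the median spread of a library around the other 9 was 11.3 to 53.4 times counting variance, widest in SBM replicate 5. Markers of muscle fibres or of other cell types could not be looked up without symbols, so the tissue label was not checked. In whole muscle, fewer cells that express a gene and less RNA per cell cannot be told apart.

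None of the 3 genes differed between the maternal diets in the test over all genes. IGF2 was lower in 3 of the 5 DDGS animals than in any SBM animal and was fitted at 0.773 times the SBM level, MSTN was at 1.21 times, and IGF1 was at 0.996 times with an interval too wide to place it. In edgeR's quasi-likelihood test, 0 of the 3 had an adjusted p under 0.05, as did 0% of the 12295 genes tested. At an unadjusted p under 0.05 there were 460 of the 12295 genes, 3.74%, and again 0 of the 3. The DDGS and SBM animals overlapped for each of the 3 genes; over all genes tested, 0.781% had groups that did not overlap. DESeq2 called 15 genes at an adjusted p under 0.05 and limma voom called 0. Neither called any of the 3.

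**Figure D1:**
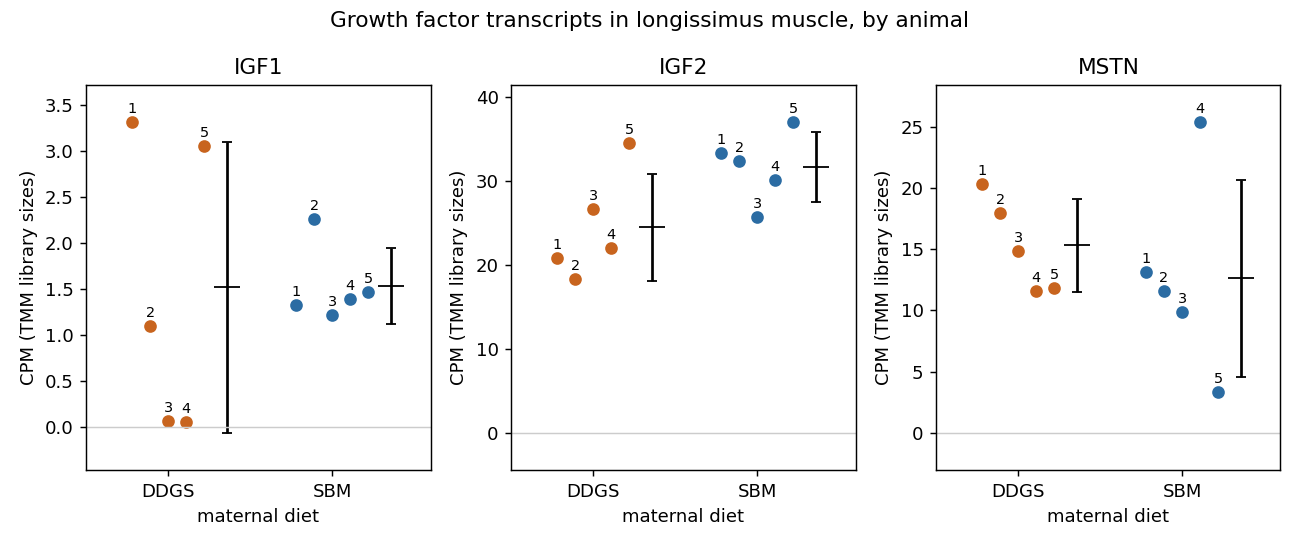
CPM of IGF1, IGF2 and MSTN (vertical axes, each on its own scale) in every steer, by maternal diet. Points are animals with their replicate number, and black bars give the group mean and 1 SD (n = 5 each). IGF1 lies near 0 in DDGS replicates 3 and 4, IGF2 is highest in SBM replicate 5 at 37.0 CPM, and MSTN has both its highest and its lowest value in the SBM group.

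Among the growth promoters, IGF2 was measured most precisely. In the DDGS steers, replicates 1 to 5, IGF2 stood at 20.9, 18.3, 26.7, 22.1 and 34.6 CPM, from 352 to 712 counts. In the SBM steers it stood at 33.4, 32.4, 25.7, 30.1 and 37.0 CPM, from 530 to 706 counts. The groups overlapped: DDGS replicates 1, 2 and 4 lay below every SBM animal, while DDGS replicate 5 lay above 4 of the 5 SBM animals. Of the DDGS animals 1 was above the median of all 10, and of the SBM animals 4 were.

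The group means of IGF2 were 24.5 ± 6.4 CPM in DDGS and 31.7 ± 4.2 CPM in SBM (SD, n = 5 each). On the log2 scale, DDGS over SBM was -0.37 ± 0.19 (fitted fold change ± SE; edgeR adjusted p = 0.996 over all genes, unadjusted 0.0669). As a fold, the estimate was 0.773 with a 95% interval of 0.586 to 1.02, without adjustment for the number of genes. The interval therefore covers no difference, and it also covers an IGF2 level in DDGS as low as 0.586 times that in SBM. The exact two-sided permutation test gave p = 0.0714, where 0.00794 is the smallest that 5 against 5 can give. Of the 12295 genes tested, 51.5% had a fitted fold change below 1. The unadjusted interval lay below 1 in some alternatives. Without DDGS replicate 5 the fold was 0.691 with an interval of 0.524 to 0.912 (edgeR adjusted p = 0.967, unadjusted 0.0116). Without SBM replicate 3 it was 0.737 with an interval of 0.547 to 0.994 (edgeR adjusted p = 0.999, unadjusted 0.0458). In limma voom it was 0.749 with an interval of 0.576 to 0.973 (adjusted p = 0.875, unadjusted 0.0325). The adjusted p stayed between 0.642 and 1 in the alternatives of edgeR, DESeq2 and limma.

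IGF1, the other promoter, was low among the genes tested. Its level exceeded that of only 13.6% of these genes, which had passed the expression filter, and of 37.1% of all genes in the table. In the DDGS steers, replicates 1 to 5, IGF1 had counts of 79, 21, 1, 1 and 63, or 3.31, 1.09, 0.0680, 0.0520 and 3.06 CPM. In the SBM steers it had 23, 43, 25, 26 and 28 counts, or 1.33, 2.26, 1.21, 1.39 and 1.47 CPM. The SBM animals were close together and the DDGS animals lay on either side of them: replicates 1 and 5 were above every SBM animal, and replicates 2, 3 and 4 below.

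In DDGS replicates 3 and 4 IGF1 was listed at 1. At the mean SBM level of 1.53 CPM these libraries would have held 22.5 and 29.4 counts of IGF1. Other genes of this level were listed at 1 too. Of the 1844 tested genes with a mean within 1.5-fold of that of IGF1, 450 (24.4%) were listed at 1 in at least 2 libraries, and 24.1% were listed at 1 in DDGS replicate 3 and 7.48% in DDGS replicate 4. The pattern of IGF1 itself was less frequent: 39 of the 1844 genes (2.11%) were listed at 1 in both of these libraries, and 18 (0.976%), IGF1 included, were also above 1 in the other 8. The part of this listing in the IGF1 values was not tested.

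The group means of IGF1 were 1.52 ± 1.58 CPM in DDGS and 1.53 ± 0.42 CPM in SBM (SD, n = 5 each). The fitted log2 fold change was -0.0062 ± 0.90 (SE; edgeR adjusted p = 0.9996, unadjusted 0.995), and the fold of 0.996 had a 95% interval of 0.272 to 3.64. Nearly equal means here do not show equal levels, since a difference of 3-fold in either direction lies within this interval. Averaged on the log2 CPM scale (prior count 2), the difference of DDGS minus SBM was -0.98, since a mean of logarithms weights low values more (exact two-sided permutation p = 0.405, n = 5 each). The sign of the fitted value also depended on single animals. It was 0.30 without DDGS replicate 3 and also without DDGS replicate 4, 0.18 without SBM replicate 2, 0.09 without DDGS replicate 2, -0.51 without DDGS replicate 1 and -0.43 without DDGS replicate 5.

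The spread of IGF1 differed between the groups as a description. Its coefficient of variation was 104% in DDGS and 27.2% in SBM, whereas the 1844 genes of similar level had medians of 64.1% and 75.1%. In the DDGS animals 90.3% of those genes varied less than IGF1, and in the SBM animals 2.11% did. The variance of IGF1 was 35.7 times that of counting alone in DDGS and 2.15 times in SBM. The DDGS figures include replicates 3 and 4, in which IGF1 was listed at 1, and take these values as counts. The spread was not computed without them, so the part of this listing in it was not tested. No test of unequal spread was made.

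MSTN, the inhibitor, had no common direction. In the DDGS steers, replicates 1 to 5, it stood at 20.3, 17.9, 14.8, 11.6 and 11.8 CPM, from 218 to 485 counts. In the SBM steers it stood at 13.1, 11.6, 9.84, 25.4 and 3.30 CPM, from 63 to 473 counts. The highest and the lowest animal of all 10 were both in the SBM group, replicates 4 and 5, 7.68-fold apart, and the DDGS range lay between them. SBM replicate 5 is also the library with the widest spread around the others over the 3664 genes at mean counts of 100 to 300, and the part of this in its MSTN value was not tested.

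The group means of MSTN were 15.3 ± 3.8 CPM in DDGS and 12.6 ± 8.0 CPM in SBM (SD, n = 5 each). The fitted log2 fold change was 0.28 ± 0.38 (SE; edgeR adjusted p = 0.996, unadjusted 0.481), and the fold of 1.21 had a 95% interval of 0.687 to 2.14. The exact two-sided permutation p was 0.389 (n = 5 each). The SBM animals at the extremes pulled this estimate in opposite directions. Without SBM replicate 5 the fold was 1.02 with an interval of 0.683 to 1.51. Without SBM replicate 4 it was 1.62 with an interval of 1.01 to 2.60 (edgeR adjusted p = 0.974, unadjusted 0.0471). Over all alternatives the adjusted p was 0.875 to 1.

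MSTN varied more than most genes of its level in the SBM animals but not in the DDGS animals. Of the 2448 tested genes with a mean within 1.5-fold of that of MSTN, 94.6% had a smaller standard error of the log2 fold change, with a median of 0.26. For MSTN it was 0.38 with all animals, 0.28 without SBM replicate 5 and 0.33 without SBM replicate 4. Without any other 1 animal it was 0.41 to 0.44. The median of the other genes was taken with all animals only. In the SBM animals the coefficient of variation of MSTN was 63.6%, more than in 97.8% of those genes, and in the DDGS animals 25%, more than in 52.8%. For IGF2 37.2% of 1670 genes of similar level had a smaller standard error, and for IGF1 68.5% of 1844. Of the 3 genes, 1 (IGF2) had an interval of the fold wholly within 2-fold in either direction, against 46.1% of all genes tested.

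**Figure D2:**
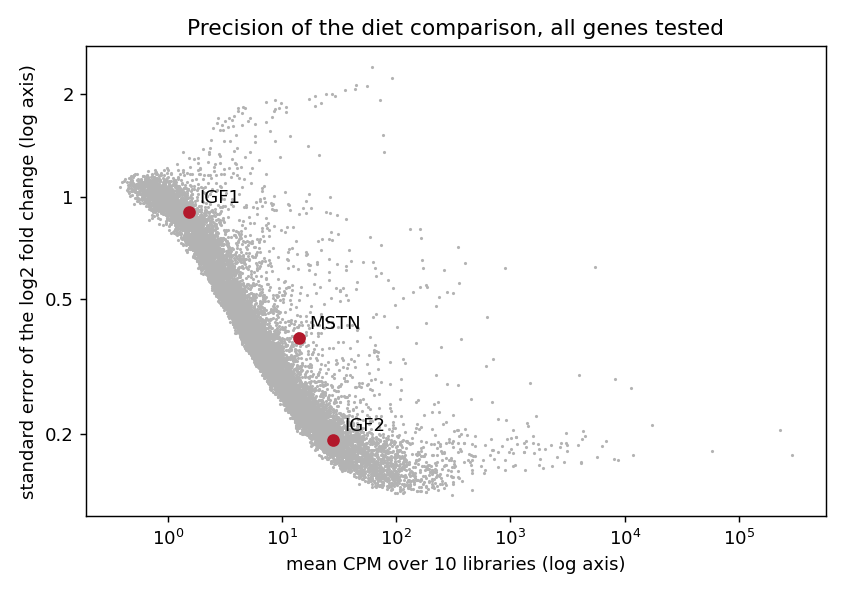
Standard error of the log2 fold change of DDGS over SBM (vertical, log axis) against the mean CPM over 10 libraries (horizontal, log axis). Grey points are the 12295 genes tested and red points the 3 growth factor genes. IGF2 lies within the band of genes of its level with a standard error of 0.19. MSTN lies in the upper part of its band at 0.38, and IGF1 at the low end of expression at 0.90.

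**Figure D3:**
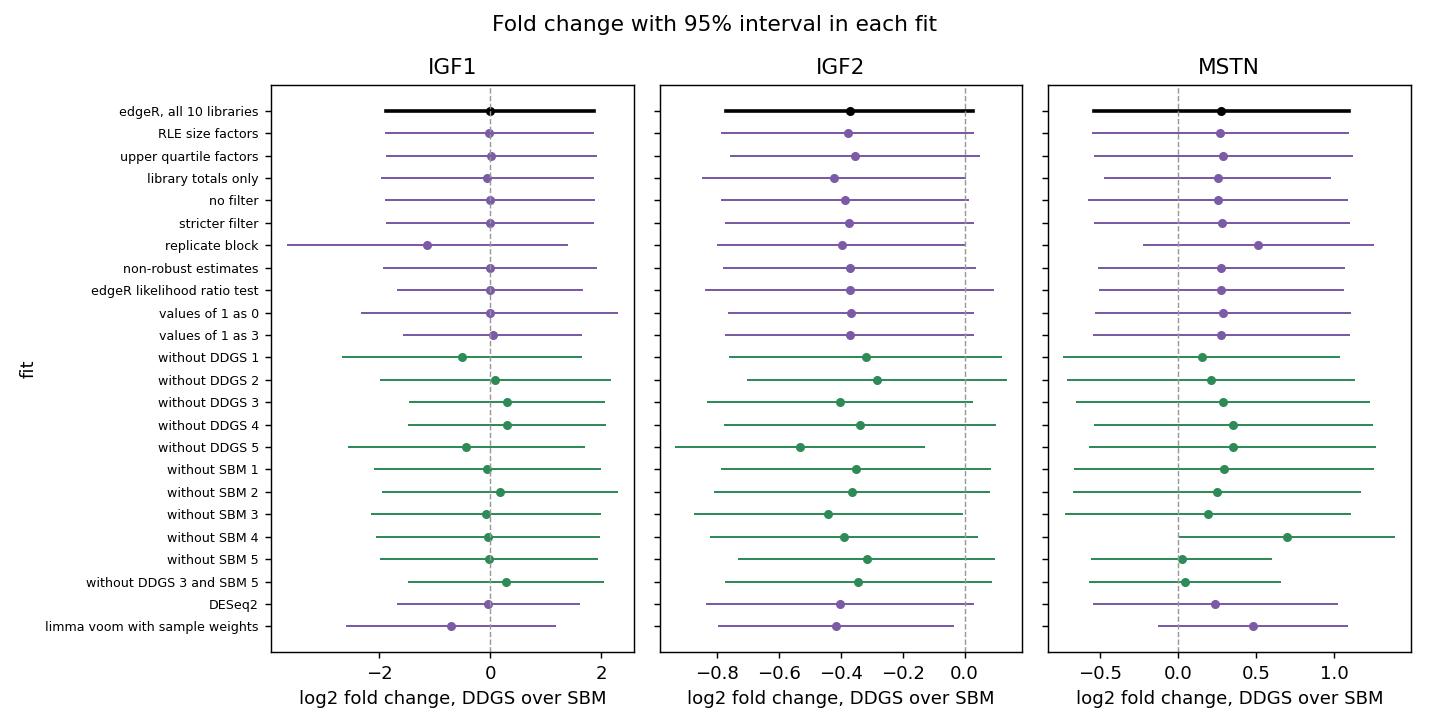
Log2 fold change of DDGS over SBM (points) with its 95% interval (lines) for each gene in every fit. The fit with all 10 libraries in edgeR's quasi-likelihood test is black, fits without libraries are green, and other settings are purple. IGF2 stays below 0 in each of these fits, MSTN stays above 0 but spans 0.023 to 0.70, and IGF1 takes either sign.

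The balance of growth promoters and myostatin was taken as the ratio of IGF1 and IGF2 counts together to MSTN counts within each library. Such a ratio needs no library size. It is not corrected for transcript length, so it compares animals and not the amounts of the different transcripts. In the DDGS steers, replicates 1 to 5, the ratio was 1.19, 1.08, 1.80, 1.91 and 3.19. In the SBM steers it was 2.64, 2.995, 2.73, 1.24 and 11.7. In each group some animals stood near 1 and others well above: the animals with the lowest ratios were DDGS replicates 2 and 1 and SBM replicate 4, and SBM replicate 5 stood apart at the top.

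On the log2 scale the balance was 0.76 ± 0.62 in DDGS and 1.66 ± 1.17 in SBM (SD, n = 5 each), a difference of -0.89, which is more than the SD of the DDGS animals and less than that of the SBM animals. It was -0.42 without SBM replicate 5 and -1.23 without SBM replicate 4. No test was made of a measure combined over these genes. Since IGF2 supplied most of the promoter counts, IGF2 against MSTN alone gave nearly the same picture, with 0.68 ± 0.65 in DDGS and 1.59 ± 1.17 in SBM. The ratio of IGF1 to MSTN was -4.84 ± 2.80 in DDGS and -2.81 ± 1.13 in SBM on the log2 scale, a difference of -2.03. The DDGS mean includes the replicates in which IGF1 was listed at 1. With 2 added to each count the difference was -1.44. It was -1.29 without DDGS replicate 3, also -1.29 without DDGS replicate 4, and -1.02 between group medians. Leaving out 1 of these replicates keeps the other in the mean, and no alternative left out both. DDGS replicates 3 and 4 stood at -7.77 and -7.80. DDGS replicates 1, 2 and 5 stood at -2.62, -4.04 and -1.95, within the SBM range of -4.185 to -1.17.

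**Figure D4:**
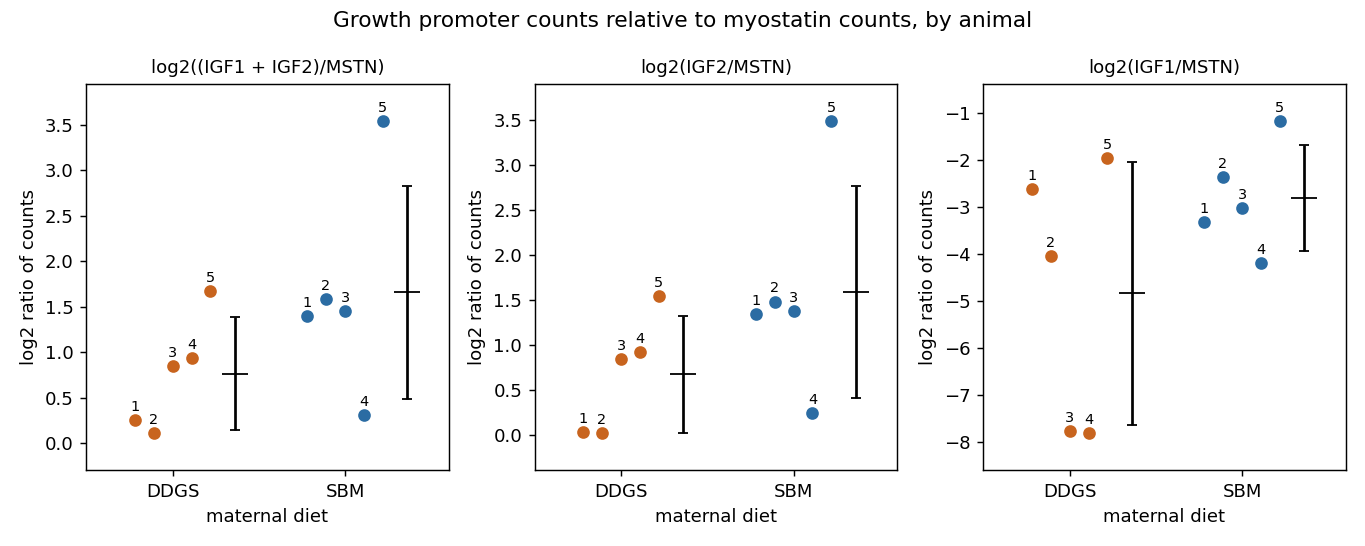
Log2 ratio of growth promoter counts to myostatin counts (vertical axes, each on its own scale) in every steer, for IGF1 and IGF2 together, IGF2 alone and IGF1 alone. Points are animals with their replicate number and black bars the mean and 1 SD (n = 5 each). The groups overlap in each panel, SBM replicate 5 is the highest animal in each, and IGF1 against MSTN is lowest in DDGS replicates 3 and 4.

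Across the 10 animals the transcripts were compared in 3 pairs on the log2 CPM scale. The relation of IGF2 and MSTN was negative and did not pass the test (Pearson r = -0.51, permutation p = 0.127, adjusted p = 0.38 over the 3 pairs; Spearman rho = -0.455, permutation p = 0.192, adjusted p = 0.396). Pearson's r was -0.359 without DDGS replicates 1 and 2, the animals farthest from the median of IGF2, and -0.282 without SBM replicate 5. On library totals instead of TMM sizes r was -0.672 (permutation p = 0.0275, adjusted p = 0.0826) and rho -0.745 (permutation p = 0.0179, adjusted p = 0.0536). Within the groups, as deviations from the group means, r was -0.407 (permutation p = 0.233).

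With all 10 animals, neither relation of IGF1 passed the test. With IGF2 r was 0.294 (permutation p = 0.412, adjusted p = 0.617; rho = 0.394, permutation p = 0.264, adjusted p = 0.396), and with MSTN r was 0.00153 (permutation p = 0.996, adjusted p = 0.996; rho = 0.0424, permutation p = 0.918, adjusted p = 0.918). Without DDGS replicates 3 and 4, the animals farthest from the median of IGF1, r was 0.107 with IGF2 and 0.127 with MSTN. Without DDGS replicate 1, which had the highest IGF1 and low IGF2, the rank correlation of IGF1 and IGF2 was rho = 0.8 (exact permutation p = 0.0138, adjusted p = 0.0415 over the 3 pairs), while r was 0.512 (exact permutation p = 0.145, adjusted p = 0.347). Without any other 1 animal rho was 0.267 to 0.383. The adjustment covers the 3 pairs and not the number of alternatives tried. Within the groups, as deviations from the group means, IGF1 and IGF2 had r = 0.122 (permutation p = 0.735) and rho = 0.00606. IGF1 and MSTN had r = 0.128 there (permutation p = 0.733).

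**Figure D5:**
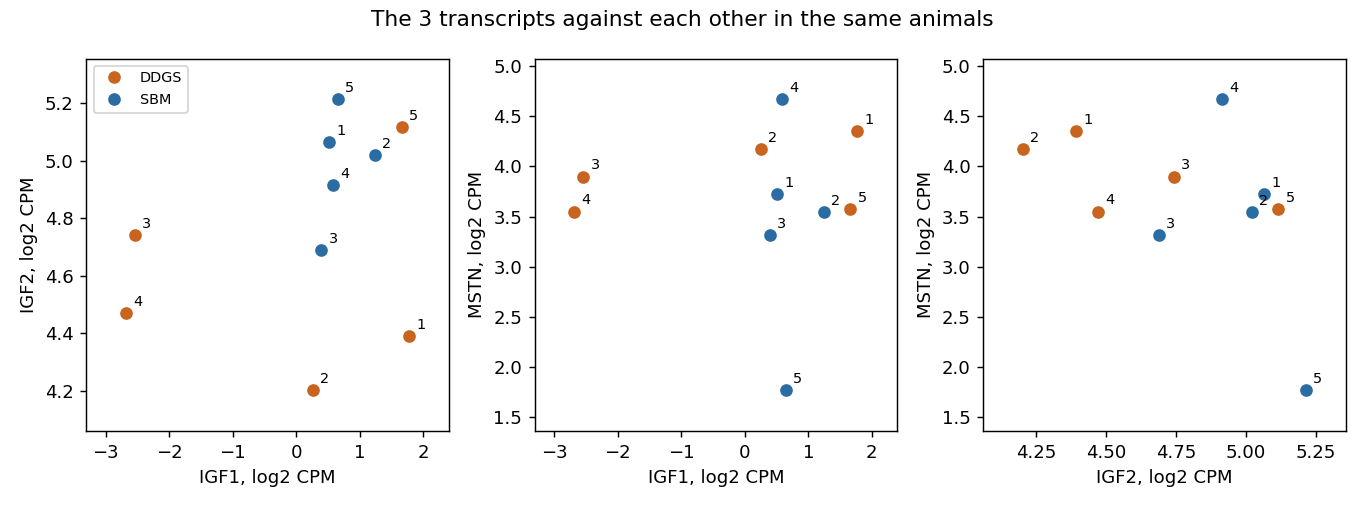
Log2 CPM of IGF1, IGF2 and MSTN plotted against each other, 1 point per steer, coloured by maternal diet and marked with the replicate number. DDGS replicates 3 and 4 lie apart on IGF1, and SBM replicate 5 combines the highest IGF2 with the lowest MSTN.

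The genes whose pattern over the 10 libraries was most like that of each transcript were sought among tested genes with a mean of at least 5 CPM. They can be given only by identifier, and their r is the highest of 7215 or 7216 values from the same libraries, so it is a description. The gene most like MSTN was ENSBTAG00000015554 (Pearson r = 0.958 over 10 libraries, mean 23.6 CPM). Like MSTN it was highest in SBM replicate 4, at 34.0 CPM, and lowest in SBM replicate 5, at 11.5 CPM, against 19.3 to 27.1 CPM in the other animals. The gene most like IGF2 was ENSBTAG00000002319 (r = 0.895, mean 24.7 CPM), with 17.0 to 29.7 CPM in DDGS and 21.6 to 31.3 CPM in SBM. Whether it overlaps IGF2 could not be checked, and the strand setting of the counting is not given in the sources used here. The gene most like IGF1 was ENSBTAG00000008271 (r = 0.928, mean 9.52 CPM), lowest in DDGS replicates 3 and 4 at 4.15 and 5.41 CPM, against 8.02 to 13.5 CPM elsewhere. In the same order IGF2 ranked 1356 of 7216 for likeness to IGF1, and MSTN ranked 6452 of 7215 for likeness to IGF2. The latter rank belongs to r = -0.51, which did not pass its test.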

How the data were processed

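Per the labels' protocols, total RNA of longissimus muscle was made into libraries with the TruSeq Stranded Total RNA kit. The deposited values are read counts per gene, not scaled, 1 column per animal. Tools in the submitters' processing notes are HTSeq 0.5.3p7, TopHat2 2.0.9, Bowtie2 and FastQC 0.10.1, and the build is UMD3.1. How the values of 1 arose, which annotation was used and whether counting used strand is not given in the sources used here, so overlapping genes are uncertain.

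Counts of all genes were tested with edgeR 4.0.16 (R 4.3.3): TMM, default expression filter, robust quasi-likelihood fit, group as the only term, Benjamini-Hochberg adjustment over 12295 genes. Standard errors and 95% intervals came from the coefficient and its F statistic. The fit was tested on simulated data. Single genes were also compared by exact two-sided permutation of log2 CPM (prior count 2), and pairs of genes by 100000 permutations. Alternatives included DESeq2 1.42.0 and limma 3.58.1. Floors cover counting error only. The p-values rest on the variation between animals, each library being labelled as 1 animal. In edgeR the variation of a gene was estimated with the other genes tested taken into account.

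The genes, lists and tests were chosen with earlier results of these data known. Named genes are the 3 chosen ones and, for each, the gene with the highest r. The reference table (ARS-UCD2.0 assembly) gave Ensembl identifiers for 0 genes, so lists of pathway genes and cell type markers were not used.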

Additional observations from a re-analysis of the deposited data

Results flagged for a closer look

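By Dixon's criterion for 5 animals, 1 of 14 groups of values held an animal far from the others: IGF1 in SBM replicate 2 stood at 2.26 CPM, against 1.21 to 1.47 CPM in the other SBM animals. About 1 in 20 groups is marked this way by chance.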

How the results depend on the processing

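No alternative in edgeR, DESeq2 or limma called IGF1, IGF2 or MSTN. IGF2 kept its direction in 23 of 23 alternatives (-0.53 to -0.28 on the log2 scale without 1 library) and MSTN in 23 of 23 (0.023 to 0.70). IGF1 changed sign in 7 of 23: 0.020 with upper quartile factors, 0.040 with values of 1 set to 3, 0.28 without DDGS replicate 3 and SBM replicate 5 together, and -0.51 to 0.30 over the fits without 1 library. Settings with 3 and without both libraries were chosen after seeing the data; the cause of the sign changes was not tested, and all lie within the standard error of 0.90. With the replicate number as a block, the log2 values were -1.13 for IGF1, -0.40 for IGF2 and 0.51 for MSTN, and 0 genes were called. The labels give no pairing, same-numbered animals had correlations of -0.0704 to 0.0694, and 2 of 5 DDGS animals correlated best with their own number. The limma value for IGF1 was -0.71. The number of genes called was 15 in DESeq2 and 0 to 1 without 1 library. The correlation of IGF1 and MSTN was -0.0269 on library totals, -0.00841 with RLE factors and -0.123 to 0.169 without 1 library, that of IGF1 and IGF2 0.12 to 0.512 (Spearman's rho 0.267 to 0.8), and that of IGF2 and MSTN -0.648 to -0.282 (rho -0.6 to -0.25). The balance difference was -1.23 to -0.42 without 1 library. That of log2(IGF1/IGF2), -1.12, became -0.54 with 2 added to each count and 0.36 with group medians. The difference of log2(IGF1/MSTN) was -2.75 to -1.29 without 1 library. IGF1 rests on 1 to 79 counts per library.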

Other observations

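IGF1 made up 3.81 to 6.53% of the summed IGF1 and IGF2 counts in the SBM animals. In DDGS replicates 1, 2 and 5 its share was 13.7, 5.63 and 8.13%, and in DDGS replicates 3 and 4, where it was listed at 1, it was 0.254 and 0.235%.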
